A study of Mus musculus with 185 samples.

Results

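The genes described here are Casp4 and 8 other genes of the inflammasome pathway, Casp1, Casp8, Nlrp3, Aim2, Pycard, Gsdmd, Il1b and Il18, 9 of the 45661 genes listed for each cell. Casp4 was chosen because its level differed between the Langerhans cells (LCs) of the 2 origins in these same cells, so its difference is given as a description. The other 8 were chosen for their place in the pathway, with earlier results of these data known. They were followed in single LCs of the epidermis that were sorted and read with a Smart-Seq kit.

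The cells came from bone marrow chimeras (BMC). Irradiated CD45.1 Cd207DTR hosts on the B6 background, whose Langerin-expressing cells carry the diphtheria toxin (DT) receptor, were given CD45.2 wild-type bone marrow and then a low dose of DT, 5 ng per gram of body weight, which leaves part of the host's LCs in place. The sort was made 2 months after DT. Host CD45.1 cells are called eLCs here, the embryonically seeded LCs, and donor CD45.2 cells are called moLCs, the monocyte-derived LCs. Every cell of both origins therefore came from irradiated, DT-treated epidermis, but only eLCs carry the Cd207DTR allele and only eLCs had been exposed to irradiation directly, so origin and these conditions cannot be told apart. The sort kept cells without lineage markers, among them CD3, Nk1.1, Ly6G and SiglecF, that were positive for CD11c, CD11b, CD24, MHCII and CD326.

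At most 5% of reads on mitochondrial genes were allowed, and 182 cells met this, all 79 eLCs and all but 3 of the moLCs. The highest share kept was 3.89%, and the 3 moLCs left out, all on plate 2, had between 9.97% and 29.3%. The kept cells were 67 moLCs and 29 eLCs on plate 1 and 36 moLCs and 50 eLCs on plate 2. Kept moLCs had a median of 2948819 reads on genes, between 606878 and 4450795, and eLCs had a median of 2779080, between 432614 and 4525429. The median moLC had reads of 4026 genes and the median eLC of 4488. The labels tie no cell to an animal. Each origin was therefore treated as 1 sample, and no test between origins was possible. All intervals below are 95% intervals. Those of summed reads cover counting error only, and those of shares take each cell as a separate draw. None of them covers the spread between animals. The reads carry no molecular identifiers and include PCR copies, which makes these intervals too narrow for summed reads.

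Of 8 LC markers, 6 were read in nearly every cell, and Tgfbr1 and Id2 in fewer. Cd74, H2-Ab1 and Mfge8 were read in all 182 cells, and Cd207, which encodes Langerin, in all but 1 of the moLCs and in all eLCs. Tgfbr1 had reads in 53.4% of the moLCs against 44.3% of the eLCs, and Id2 in 69.9% against 81.01%. Levels are given as CPM, the reads of a gene scaled to 1000000 reads on all genes of the same cell or origin. Most markers of other inflammasome-rich cells were at or near 0. Of 5 neutrophil markers, S100a8, Retnlg, Csf3r and Ly6g were without reads in all cells, and the summed level of the list was at most 2.72 CPM in any moLC and 0 in every eLC. Of 5 monocyte markers, Fcgr1 had no read, Ly6c2 and Plac8 were each read in 1 eLC, and Ccr2 in 2 moLCs. The exception was Lyz2, a lysozyme gene of myeloid cells, which was read in 43 moLCs and 18 eLCs. The monocyte list reached 577 CPM in a moLC and 439 in an eLC. The 6 T cell markers summed to at most 21.5 CPM in a moLC and 23.9 in an eLC. The 6 keratinocyte markers had a median of 0 CPM in both origins and reached 542 CPM in a moLC and 95.3 in an eLC. The 4 melanocyte markers reached 45.5 and 6.24 CPM. Of the 4 mast cell markers only Kit had reads, in 14 moLCs and 8 eLCs, and it reached 344 and 268 CPM.

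Inflammasomes are protein platforms of the cytosol that turn a danger signal into inflammation. A sensor such as Nlrp3, which responds to many membrane and metabolic disturbances, or Aim2, which binds DNA in the cytosol, recruits the adaptor Pycard (also called ASC), which in turn gathers and activates caspase-1. Caspase-1 cuts the precursors of the cytokines IL-1β and IL-18 and the pore-forming protein gasdermin D. Caspase-11, the product of mouse Casp4, binds bacterial lipopolysaccharide (LPS) in the cytosol and cuts gasdermin D without a sensor protein above it. Caspase-8 starts apoptosis downstream of death receptors, holds necroptosis in check, and can cut some of the same substrates. Much of the pathway is controlled after transcription, so these reads give the stock of mRNA and not the activity of any protein.

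Casp4 and Casp1 are neighbours on chromosome 9 of GRCm38. Casp1 (ENSMUSG00000025888) spans chr9:5298517-5307265 and Casp4 (ENSMUSG00000033538) spans chr9:5308828-5336783, both on the plus strand, with 1562 bases between them. The 250 bases before their RefSeq starts (GRCm38.p6, plus strand, 5′ to 3′) are shown because the 2 genes lie side by side and Casp4 had the largest log2 ratio of the 9 genes over all cells. The windows are chr9:5298267-5298516 for Casp1 and chr9:5308599-5308848 for Casp4, and capitals mark matches on either strand to GGGNNTTTC, the first 9 letters of a form of the motif bound by NF-κB.
Casp1: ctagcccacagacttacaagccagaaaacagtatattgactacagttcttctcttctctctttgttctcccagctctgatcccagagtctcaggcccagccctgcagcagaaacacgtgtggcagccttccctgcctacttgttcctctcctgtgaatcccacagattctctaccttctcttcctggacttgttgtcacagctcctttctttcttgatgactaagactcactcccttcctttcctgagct
Casp4: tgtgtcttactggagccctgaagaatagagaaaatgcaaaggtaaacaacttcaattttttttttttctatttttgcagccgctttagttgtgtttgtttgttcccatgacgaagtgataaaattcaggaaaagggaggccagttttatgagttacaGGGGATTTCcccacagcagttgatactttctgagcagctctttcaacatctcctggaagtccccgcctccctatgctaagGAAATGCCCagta

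Casp4 had 2 matches, which begin at positions -93 and -13 from this start and do not overlap. GENCODE M21 places the gene's first base at 5308828, so the match nearer the start lies inside its annotated span. Promoters of 8 of the 9 genes were in the RefSeq table, all but Gsdmd, and were searched from 250 bases before to 50 after the start. Casp4 had 2 matches to this motif, Aim2 had 1 before its start and Il18 had 1 after its start, and Casp1, Casp8, Nlrp3, Pycard and Il1b had none. This motif is held by 4.36% of all 32851 promoters listed. None of the 8 held GAAANNGAA, from the interferon-stimulated response element and found in 8.56% of promoters, TTCNNNGAA, the STAT motif found in 8.30%, or TGANTCA, the AP-1 motif found in 7.81%. All 4 motifs were searched on both strands and were chosen after the sequences had been seen. A match is a run of letters and not a measured binding site.

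Casp4 was read in more moLCs than eLCs. It had reads in 41 of the kept moLCs (39.8%, 30.3 to 49.9%, Clopper-Pearson) and in 5 of 79 eLCs (6.33%, 2.09 to 14.2%), a difference of 33.5 percentage points (21.7 to 43.8). Among all moLCs the lowest and the median cell had 0 CPM and the highest 475 CPM. In eLCs the lowest and the median were also 0, and the highest cell had 154 CPM, so most cells of both origins lay at 0 and the upper ranges overlapped.

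The 5 eLCs with Casp4 had 30, 140, 194, 528 and 553 reads of it, and the 41 moLCs ran from 2 to 1522 reads around a median of 272. In cells with a read the median was 88.9 in moLCs against 69.8 CPM in eLCs, a ratio of 1.27. The share of cells with a read differed 6.29-fold. Most of the distance between the origins in the mean CPM per cell was therefore in how many cells held Casp4 reads, with 2.65 of a log2 ratio of 3.11 in the share and 0.46 in the mean level of the cells with a read.

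Summed over all cells, Casp4 stood at 48.1 CPM in moLCs (47.3 to 48.9, exact Poisson) and 6.63 CPM in eLCs (6.30 to 6.98), a log2 ratio of moLCs over eLCs of 2.86. Within plate 1 the values were 46.5 and 14.5 CPM, a log2 ratio of 1.68, and within plate 2 they were 51.2 and 1.31 CPM, a log2 ratio of 5.29. The moLC level was alike on both plates, and the spread in the ratio came from the eLCs, of which 3 of 29 on plate 1 and 2 of 50 on plate 2 had a read. The shares in moLCs were 40.3% on plate 1 and 38.9% on plate 2, against 10.3% and 4% in eLCs. In cells with a read the ratio of medians was 0.627 on plate 1 and 3.02 on plate 2, so the level per positive cell had no common direction. A single plate 1 eLC held 38.3% of all eLC reads of Casp4, and without it the log2 ratio was 3.53. At an equal depth of 2052512 reads per cell, with shallower cells set aside and 96 moLCs and 67 eLCs remaining, the shares were 41.7% and 7.46%.

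**Figure D1:**
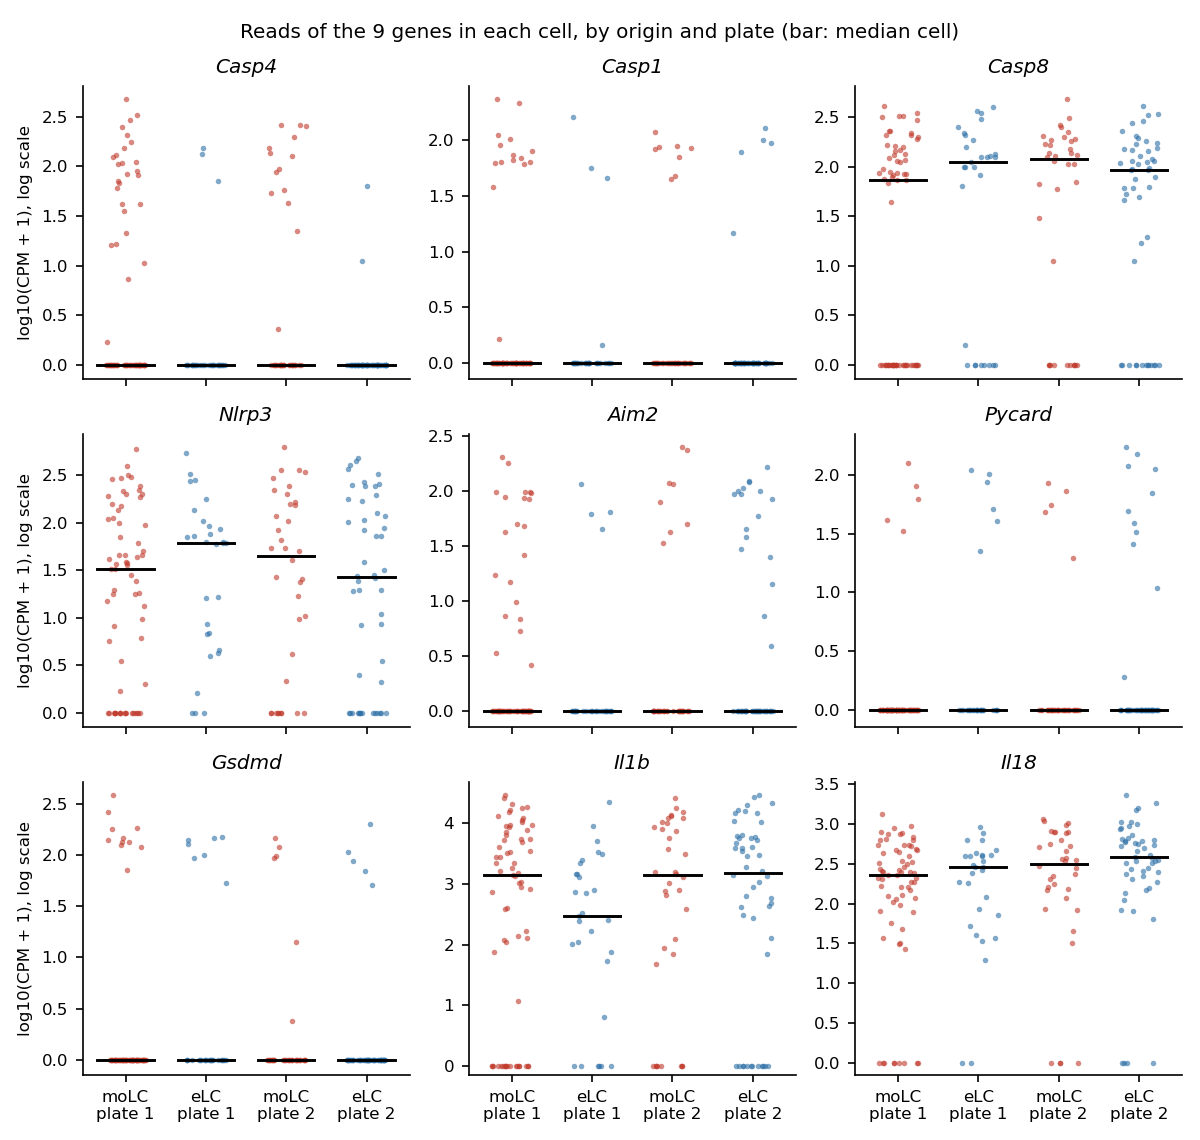
Level of each of the 9 genes in each of the 182 kept cells, as log10(CPM + 1) on a logarithmic scale, by origin (moLC red, eLC blue) and plate, 1 point per cell and a bar at the median cell. Casp4 lies above 0 in 41 moLCs and 5 eLCs, while Casp8, Nlrp3, Il1b and Il18 lie above 0 in most cells of both origins and overlap throughout.

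Casp1, which encodes the caspase that inflammasomes activate, was a low gene in both origins. It was read in 23 moLCs (22.3%, 14.7 to 31.6%) and 9 eLCs (11.4%, 5.34 to 20.5%), and the highest cell had 233 CPM among moLCs and 161 CPM among eLCs. Cells with a read had medians of 73.4 and 76.97 CPM. The summed level was 18.98 in moLCs against 9.36 CPM in eLCs, a log2 ratio of 1.02, with 0.95 on plate 1 and 1.04 on plate 2. The direction was the same on both plates, but the intervals of the shares overlapped and the difference of 10.9 points had an interval from -0.33 to 21.3. Without the moLC or the eLC with the most Casp1 reads, the ratio was 0.83 or 1.42.

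Casp8 (ENSMUSG00000026029, chr1:58795374-58847503, plus strand) was read in most cells. It had reads in 63 moLCs (61.2%) and 58 eLCs (73.4%), with a median over all cells of 81.4 in moLCs against 98.2 CPM in eLCs and highest cells of 481 and 411 CPM. The summed levels were 98.997 and 113 CPM, a log2 ratio of -0.19 that was -0.53 on plate 1 and 0.21 on plate 2, so the plates differed in direction.

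Per kilobase of the union of their exons, the 3 caspases ordered differently in the 2 origins. In moLCs the level of Casp8 was 34.2 CPM per kb, that of Casp4 12.97 and that of Casp1 12.7. In eLCs Casp8 stood at 38.9, Casp1 at 6.25 and Casp4 at 1.79 CPM per kb. With these lengths, 3710 bases for Casp4 and 1497 for Casp1, Casp4 lay beside Casp1 in moLCs and below it in eLCs. Without division by length, Casp4 had 48.1 CPM and Casp1 18.98 CPM in moLCs, and 6.63 and 9.36 CPM in eLCs. How close the 2 genes lie therefore depends on the length used. Casp1 and Casp4 are related in sequence, and how reads that match both were counted is not given in the sources used here.

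Nlrp3 (ENSMUSG00000032691, chr11:59541568-59566956, plus strand) was the sensor read in the most cells, with reads in 76 moLCs (73.8%) and 62 eLCs (78.5%). The median over all cells was 32.1 in moLCs against 31.1 CPM in eLCs, and the highest cells had 626 and 538 CPM. The summed levels were 88.3 and 96.9 CPM, with log2 ratios of -0.13 over all cells, -0.14 on plate 1 and 0.03 on plate 2. The origins overlapped over their whole range.

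Aim2 (ENSMUSG00000037860, chr1:173350879-173466040, plus strand) was read in 29 moLCs (28.2%) and 21 eLCs (26.6%), with highest cells of 251 and 166 CPM. The summed levels were 21.4 and 19.99 CPM, a log2 ratio of 0.10. The near equality of the pooled values covered opposite plates. On plate 1 Aim2 had reads in 31.3% of the moLCs against 13.8% of the eLCs, a log2 ratio of 1.04, and on plate 2 in 22.2% and 34%, a log2 ratio of -0.16.

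Pycard (ENSMUSG00000030793, chr7:127989708-127993867, minus strand), the adaptor between these sensors and caspase-1, was the one gene of the 9 that, scaled by total reads, stood higher in eLCs by more than 2-fold on both plates. It was read in 10 moLCs (9.71%, 4.75 to 17.1%) and 17 eLCs (21.5%, 13.1 to 32.2%), with highest cells of 127 and 173 CPM. The summed level was 5.02 in moLCs against 15.9 CPM in eLCs, a log2 ratio of -1.66, with -2.12 on plate 1 and -1.08 on plate 2. The library scaling of edgeR (TMM), used below, raises every ratio by 0.10, which leaves plate 2 short of 2-fold. In cells with a read the medians were 58.01 and 49.99 CPM, so here too the origins differed in how many cells held reads. The intervals of the 2 shares overlapped, and the difference of shares was -11.8 points (-23.0 to -1.29). At equal depth Pycard was read in 7.29% of the 96 moLCs and 23.9% of the 67 eLCs that remained. An exon of Gm45205 overlaps Pycard on the opposite strand over 485 bases, but Gm45205 had no read in any kept cell.

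Gsdmd (ENSMUSG00000022575, chr15:75862327-75867408, plus strand), whose protein forms the pore of pyroptosis, was read in 17 moLCs (16.5%) and 12 eLCs (15.2%), with highest cells of 389 and 200 CPM. Its summed levels were 24.9 and 17.99 CPM, a log2 ratio of 0.47. The within-plate ratios were smaller, 0.16 and 0.14, since both origins were higher on plate 1, with 31.7 and 28.4 CPM, than on plate 2, with 12.05 and 10.9 CPM, and more of the moLCs were on plate 1. Without the moLC that had 1468 reads the pooled ratio was 0.17.

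The mRNAs of both cytokines were plentiful in the sorted LCs of both origins. Before the sort the epidermis was digested with enzymes and CD45-positive cells were enriched on beads. Any effect of this handling on the levels was not tested. Il1b (ENSMUSG00000027398, chr2:129364570-129371139, minus strand) was read in 77 moLCs (74.8%) and 61 eLCs (77.2%). Its median over all cells was 1433 in moLCs against 788 CPM in eLCs, and the highest cells had 29368 and 29053 CPM against a lowest of 0 in both, so the origins spanned the same range. The summed levels were 4526 and 3961 CPM, a log2 ratio of 0.19. On plate 1 the ratio was 0.93 and the median of cells with a read was 3378 in moLCs against 748 CPM in eLCs, while on plate 2 the ratio was -0.11 and these medians were 3490 and 3982 CPM. A single plate 1 eLC with 101036 Il1b reads held 49.3% of the reads of the gene in the eLCs of that plate. Il1bos overlaps Il1b on the opposite strand over 25 exonic bases and had 69 reads in 1 moLC and 378 in 1 eLC.

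Il18 (ENSMUSG00000039217, chr9:50554827-50581840, plus strand) was the gene of the 9 read in the most cells, 90 moLCs (87.4%) and 73 eLCs (92.4%). Its median over all cells was 246 in moLCs against 342 CPM in eLCs, with highest cells of 1333 and 2298 CPM. The summed levels were 329 and 413 CPM, a log2 ratio of -0.33, which was 0.08 on plate 1 and -0.40 on plate 2.

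On the scale per kilobase of exon, the order of the other levels was the same in both origins for the most abundant genes. Il1b led with 2374 CPM per kb in moLCs and 2077 in eLCs, followed by Il18 with 319.5 and 400.3. Nlrp3 stood at 21.8 and 23.9, Gsdmd at 10.5 and 7.57, Aim2 at 6.10 and 5.71, and Pycard at 1.32 and 4.18 CPM per kb. With these lengths the adaptor Pycard was the lowest of the 9 in moLCs, and in eLCs it was the second lowest after Casp4. The exon union of Pycard was 3800 bases, most of the span of the gene. A shorter length would give a higher value, so its rank depends on the length used. Pairs of neighbouring genes in this order, such as Casp4 and Casp1 in moLCs, cannot be separated without replicate animals.

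**Figure D2:**
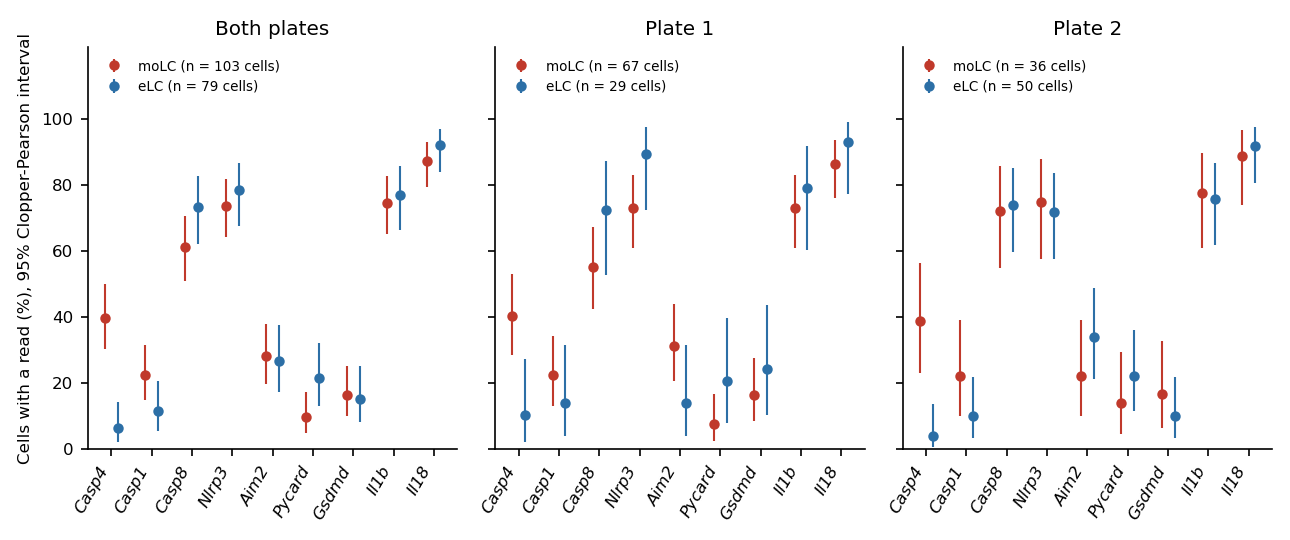
Percentage of cells with at least 1 read of each gene in moLCs (red) and eLCs (blue), in both plates together, plate 1 and plate 2, with 95% Clopper-Pearson intervals. The intervals of the 2 origins are apart for Casp4 in both plates together (39.8% against 6.33%), in plate 1 (40.3% against 10.3%) and in plate 2 (38.9% against 4%), and they overlap for the other genes. Casp4 had been chosen for its difference between origins.

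To set these differences beside those of other genes, a rule of size was used that requires that at least 25% of moLCs or of eLCs have a read and that the summed levels lie 2-fold or more apart, with 1 direction over all cells, on plate 1 and on plate 2. Of 6522 genes read in 25% of the cells of 1 origin, 132 (2.02%) passed it, 53 higher in moLCs (0.813%) and 79 higher in eLCs (1.21%). Of the 9 genes, 6 were read in that many cells, all but Casp1, Pycard and Gsdmd, and 1 of the 6 passed, Casp4, which had been chosen on this contrast. The median log2 ratio of the 6 was -0.02 in all cells, 0.51 on plate 1 and -0.04 on plate 2, against -0.10, -0.07 and -0.09 over the 6522 genes. With the library scaling of edgeR (TMM) all ratios were 0.10 higher, and the median of the 6522 genes was then 0.00062. The direction of Nlrp3 and Casp8 in all cells was kept under that scaling.

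**Figure D3:**
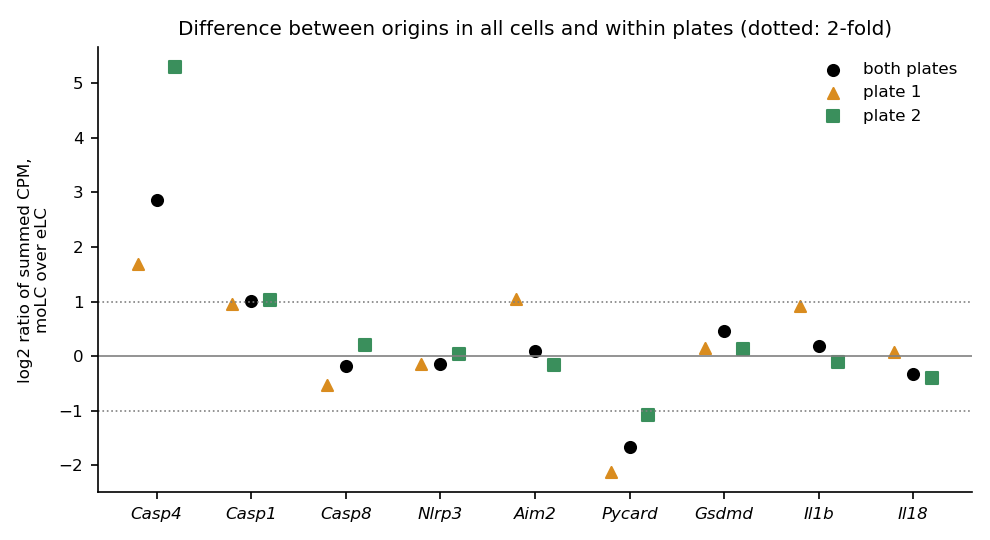
Log2 ratio of the summed CPM of moLCs over eLCs for each gene in both plates together (circles), plate 1 (triangles) and plate 2 (squares), with dotted lines at 2-fold. Casp4 lies above the upper line at 1.68, 2.86 and 5.29, Pycard lies below the lower line at -2.12, -1.66 and -1.08, and Casp8, Nlrp3, Aim2, Il1b and Il18 have plates on opposite sides of 0.

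Since the pathway works within a cell, the reads were also followed cell by cell. All 182 cells had a read of at least 1 of the 9 genes and none had reads of all 9. The number read per cell ran from 1 to 8 in moLCs, with a mean of 4.14 ± 1.55 (SD over the kept moLCs), and from 1 to 7 in eLCs, with a mean of 4.03 ± 1.41 (SD over the 79 eLCs). The median was 4 in both.

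The 2 cytokines were often read in the same cell. Il1b and Il18 were both read in 70 moLCs (67.96%, 58.04 to 76.8%) and 59 eLCs (74.7%, 63.6 to 83.8%), and Nlrp3 and Il1b in 59 moLCs (57.3%) and 50 eLCs (63.3%). Counted singly, Il1b had reads in 74.8% of moLCs and 77.2% of eLCs, Il18 in 87.4% and 92.4%, and Nlrp3 in 73.8% and 78.5%. Genes read in so many cells share many cells in any case. Whether they were together more often than the single shares give was not tested. The full set of sensor, adaptor and caspase was rarely read in 1 cell. Nlrp3, Pycard and Casp1 were read together in 1 moLC (0.971%, 0.025 to 5.29%) and 5 eLCs (6.33%, 2.09 to 14.2%), 3 of them on plate 1 and 2 on plate 2. These 6 were all the cells in which Pycard and Casp1 were read together. Aim2, Pycard and Casp1 were read together in 1 cell of each origin. A gene without a read in a cell may still be transcribed there, so these counts can miss cells that hold the mRNAs. They also depend on the reads required, since a cell counted from 1 read on. With 10 reads or more of each gene, Nlrp3, Pycard and Casp1 were together in 0.971% of moLCs and 5.06% of eLCs.

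Casp4 and Gsdmd, the enzyme and the substrate of the route that needs no sensor protein, were read together in 9 moLCs (8.74%, 4.07 to 15.9%) and 1 eLC (1.27%, 0.032 to 6.85%). Casp1 and Gsdmd were read together in 3 moLCs and 1 eLC. The neighbours Casp1 and Casp4 were read together in 13 moLCs (12.6%) and 1 eLC (1.27%). Casp4 and Il1b were read together in 35 moLCs (33.98%) and 5 eLCs. Casp1 was read with Il1b in 15 moLCs and 7 eLCs and with Il18 in 18 moLCs and 8 eLCs. Casp4 had been chosen for its difference between origins, with 41 moLCs against 5 eLCs holding reads. Counts of its pairs carry that difference over and cannot show whether pairing differs. Per cell with Casp4, Gsdmd came along in 21.95% (moLCs) against 20% (eLCs, 0.505 to 71.6%). For Casp1 these values were 31.7% against 20%, and for Il1b 85.4% against 100%.

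The 5 eLCs with Casp4 all had reads of Casp8, Nlrp3, Il1b and Il18. On plate 2 the cell with 30 Casp4 reads also had Casp1, and the cell with 140 had none of the others. Of the 3 on plate 1, the cell with 528 reads had Aim2, the cell with 553 reads had Pycard and Gsdmd, and the cell with 194 reads had none of the others.

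Within moLCs, cells with and without Casp4 reads were compared. Casp8 was read in 34 of the 41 moLCs with Casp4 (82.9%, 67.9 to 92.8%) and in 29 of the 62 without (46.8%, 33.98 to 59.9%), a difference of 36.2 points that was 37.8 on plate 1 and 33.8 on plate 2. The intervals were apart over both plates and on plate 1 and overlapped on plate 2. Casp8 was singled out among the 8 pairs after its values were seen. The moLCs with Casp4 had reads of more genes in general, a median of 4415 against 3867, although their median totals were 2919212 and 2952167 reads, and the part of this in the difference was not tested. Over 5802 genes read in at least 25% of moLCs the median difference was 6.73 points, and 17 of them (0.293%), Casp8 among these, differed by as much as Casp8 or more.

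The other genes differed less between these cells. Nlrp3 was read in 85.4% of moLCs with Casp4 and 66.1% of those without, and Il1b in 85.4% and 67.7%, but the Il1b difference was 26.4 points on plate 1 and 1.30 points on plate 2. Casp1 was read in 31.7% and 16.1%, Pycard in 14.6% and 6.45%, and Gsdmd in 21.95% and 12.9%. Aim2 was read in 34.1% and 24.2%, with a difference of 15.7 points on plate 1 and -1.30 points on plate 2. Il18 went the other way, with 82.9% and 90.3%, though on plate 2 it was 6.49 points more frequent with Casp4. For all of these the intervals overlapped.

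Lyz2 and the migration receptor Ccr7 were compared in the same way. Lyz2 was read in 22 of the 41 moLCs with Casp4 (53.7%) and 21 of the 62 without (33.9%), with overlapping intervals, and the 5 monocyte markers summed to a median of 28.3 CPM in the first and 0 CPM in the second. Since Lyz2 was the only one of these markers with more than scattered reads, that sum is its level. Ccr7 was read in 18 (43.9%) and 22 (35.5%), and Timd4, which encodes a phosphatidylserine receptor of resident macrophages, in 5 (12.2%) and 16 (25.8%). Timd4 was read in 14.8% and 17.5% on plate 1 and in 7.14% and 40.9% on plate 2. The Lyz2 difference was 13.1 points on plate 1 and 32.5 on plate 2, and that of Ccr7 was 4.44 and 15.6. All 5 eLCs with Casp4 had reads of Timd4, 1 had Ccr7 and 1 had Lyz2. Of the 74 eLCs without Casp4, 55 had Timd4 (74.3%), 30 had Ccr7 and 17 had Lyz2.

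**Figure D4:**
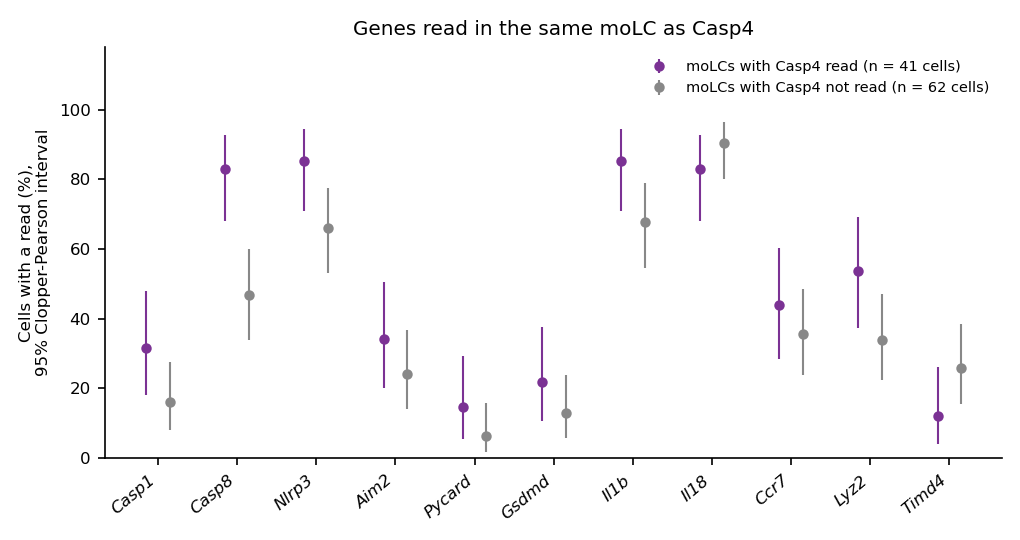
Percentage of moLCs with a read of each gene on the horizontal axis among the 41 moLCs with a Casp4 read (purple) and the 62 without (grey), with 95% Clopper-Pearson intervals. Only the intervals of Casp8 are apart (82.9% against 46.8%).

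The genes whose level across the kept moLCs was most like that of Casp4, by Spearman correlation of CPM over 5803 genes, were Bhlhe40 (0.50), Klf6 (0.42) and Slc1a5 (0.41). Bhlhe40 and Klf6 encode transcription factors and Slc1a5 an amino acid transporter. The correlations were 0.47, 0.37 and 0.36 over the 67 moLCs of plate 1 and 0.52, 0.52 and 0.53 over the 36 of plate 2. Over all moLCs, 95% of all genes lay below 0.23. The 3 genes were picked as the highest over these same cells, so their place above 0.23 was fixed by the pick. The plates hold the cells used for the pick and give no separate support. In eLCs, where 5 cells had a read, the correlations were 0.13, 0.06 and 0.06. Cells with more genes read enter all of these correlations. None of these 3 genes passed the size rule between origins. Bhlhe40 had 497 in moLCs against 256 CPM in eLCs, with a log2 ratio of 0.95 over all cells, 0.28 on plate 1 and 1.70 on plate 2.

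The genes most like Il1b were Ier2, an immediate early gene (0.43), Polb, a DNA repair polymerase (0.39), and Cd47, the gene of a surface protein that restrains phagocytosis (0.39). On plates 1 and 2 they were 0.42 and 0.45, 0.37 and 0.46, and 0.45 and 0.27, and in eLCs they were 0.27, 0.21 and 0.16. These genes too were picked over the moLCs of both plates. Among the 36 pairs of the 9 genes the highest correlations in moLCs were those of Casp4 with Casp8 (0.31) and of Il1b with Il18 (0.22). Most pairs involve a gene at 0 in most moLCs, which limits how high such a correlation can be.

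The wider pathway was followed in 7 lists with 93 genes in all, of which 90 were listed in the data, 18 of these without a read in any kept cell, and 29 read in 25% of the cells of 1 origin. Of the 23 that are not among the 9 genes described above, none passed the size rule, against 2.02% of all genes, and 14 were above 0 and 9 below, with a median log2 ratio of 0.07 in all cells, -0.13 on plate 1 and -0.04 on plate 2. From each list the 2 genes read in the most cells are given.

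Among 19 sensors and adaptors, 6 were read widely enough, with a median log2 ratio of 0.11. Txnip, whose protein can bind Nlrp3, was read in 169 cells, more than Nlrp3 with 138. It had 642 in moLCs against 416 CPM in eLCs, with a log2 ratio of 0.62 over all cells, 0.77 on plate 1 and -0.04 on plate 2.

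The list of guanylate-binding and LPS delivery genes also holds Cd14, Tlr4 and Ticam1 of Toll-like receptor signalling, and of its 14 genes 4 had no read and 1 was read widely enough. That gene was Cd14, the LPS co-receptor, with 87.9 in moLCs against 79.3 CPM in eLCs, read in 19.4% and 26.6% of cells. Ticam1, the adaptor of Toll-like receptor signalling known as TRIF, was read in 18 moLCs and 9 eLCs, with 17.3 and 5.89 CPM. The guanylate-binding proteins that act with caspase-11 thus had few reads in LCs of either origin. Gbp2 and Gbp5 had none, and Gbp7 was read in 4 moLCs and 2 eLCs. The Gbp gene of the list read in the most cells was Gbp8, in 9 moLCs and 5 eLCs, with 8.61 and 2.47 CPM. Gbp9 was read in 5 moLCs and 5 eLCs, with 5.22 and 4.51 CPM. These Gbp genes were named after their values were seen.

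Among the 10 caspases 2 had no read, Casp12 and Casp14, which were named after their values were seen. Casp6, an executioner caspase, was read in 138 cells with 152 in moLCs against 170 CPM in eLCs, a log2 ratio of -0.16. Among 11 pore and rupture genes, 7 had no read, which left Gsdme and Ninj1 as the 2 read in 25% of cells. Gsdme, which encodes the gasdermin cut by caspase-3, was read in 63 moLCs (61.2%, 51.1 to 70.6%) and 70 eLCs (88.6%, 79.5 to 94.7%). These intervals were apart, but how many of all genes have intervals apart was not counted. The median eLC had reads of more genes in general, 4488 against 4026 in the median moLC. The part of this in the difference was not tested. For Gsdme the same direction held on plate 1, with 62.7% and 93.1%, and on plate 2, with 58.3% and 86%. Its summed level was 223 in moLCs against 324 CPM in eLCs, a log2 ratio of -0.54, short of 2-fold. Ninj1, which breaks the plasma membrane after the pores have formed, was read in 174 cells, with 646 and 779 CPM and a log2 ratio of -0.27.

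Per kilobase of exon, Gsdme had 17.5 CPM per kb in moLCs and 25.5 in eLCs, above the 10.5 and 7.57 of Gsdmd. Ninj1 had 411 and 496 CPM per kb.

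Among 11 partners of caspase-8 and of necroptosis, 7 were read widely enough, with a median log2 ratio of 0.07. Cyld, a deubiquitinase, had 226 in moLCs against 183 CPM in eLCs (log2 ratio 0.30, with 0.60 on plate 1 and -0.06 on plate 2), and Birc3, a ubiquitin ligase of the inhibitor of apoptosis family, had 217 and 207 CPM (0.07).

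Of 13 listed genes of the IL-1 family and its receptors, 5 were read widely enough, with a median of 0.15. The gene of the family with the most reads was Il1r2, the decoy receptor that captures IL-1 without signalling, which was read in 100 moLCs and all 79 eLCs. It had 16888 in moLCs against 17388 CPM in eLCs, with a log2 ratio of -0.04 over all cells, -0.17 on plate 1 and 0.11 on plate 2. Per kilobase of exon this was 8851 and 9113 CPM per kb, above the 2374 and 2077 of Il1b.

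Among 12 inhibitors and regulators, 5 were read widely enough, with a median of -0.25. Card19, a CARD protein of mitochondria, had 176 in moLCs against 170 CPM in eLCs (log2 ratio 0.05). Serpinb9, an inhibitor of granzyme B, had 1421 and 1875 CPM (-0.40, with -0.49 on plate 1 and -0.44 on plate 2). Over these lists Casp4 was the only gene past the size rule, the gene that had been chosen for this difference.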

How the data were processed

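The deposited values are raw read counts per gene and cell. The authors prepared cDNA by a Smart-Seq protocol, sequenced both ends of the fragments and aligned the reads to mm10 with STAR. The counting tool is not given in the sources used here. In 8 cells the deposited columns hold 9 values that are not whole, were taken like estimated counts and were rounded. Of all values above 0, 82.9% were even. Cells were grouped by labelled origin and plate. Counts were summed per origin and divided by all reads on genes to give CPM (Python 3.11.15, pandas 2.3.3, scipy 1.17.1), with exact Poisson and Clopper-Pearson intervals at 95%. Intervals on differences of shares were formed from Wilson limits by the method of Newcombe. The study's methods compared single cells by a rank-sum test, which was left out since cells are not replicates. Coordinates and exon lengths are from GENCODE M21, which holds 45495 of the 45661 names. No doublet caller was run on these singly sorted cells. The script was tested on simulated data.

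The 9 genes, the pathway lists and the marker lists were chosen with earlier results of these data known. Genes named are the 9, every list gene past the size rule, the 2 genes per list read in the most cells, the 3 most like Casp4 and Il1b, markers, Ccr7, Lyz2 and Timd4. Others are said to be named after their values were seen. Alternatives were each plate alone, all cells without the mitochondrial filter, at least 1000 genes read, edgeR 4.0.16 TMM scaling, totals that omit the 50 most-read genes, equal weight per cell, thinning to 2052512 reads, leaving out each cell, 10 reads or 1 CPM for a read cell, and a size rule without the filter, at 50% of cells or at 1.5-fold.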

Additional observations from a re-analysis of the deposited data

Results flagged for a closer look

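A signal appeared in cells that the comparisons do not use. In the 3 moLCs left out for mitochondrial reads, Nlrp3 summed to 191 CPM, above the 88.3 CPM of the kept moLCs and the 96.9 CPM of the kept eLCs. All 330 reads came from 1 of the 3 cells. Together the 3 cells held few reads, so that 3 reads equalled 1.74 CPM. Il1b was read in 2 of the 3, at 1874 CPM, and the other 7 genes had no read in them.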

How the results depend on the processing

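The log2 ratio of Casp4, 2.86, was 1.68 on plate 1 alone, 5.29 on plate 2 alone, 2.96 with TMM factors and 3.11 with equal weight per cell, and it ran from 2.71 to 3.53 when each cell was left out in turn. These 2 ends came without the plate 1 moLC of 1522 reads and without the plate 1 eLC of 553 reads. Without the mitochondrial filter, with at least 1000 genes, with totals without the 50 top genes and at equal depth it moved by less than its counting interval. The difference in the share of cells with Casp4 stayed within its interval under every alternative run, between 29.95 and 34.9 points. The count of the 9 genes past the size rule, 1, was 2 on plate 1 alone (Casp4 and Aim2), 2 without the filter on the share of cells (Casp4 and Pycard) and 0 at a read in 50% of cells. Over all genes the count of 132 was 802 on plate 1 alone, 849 on plate 2 alone, 1546 without the filter, 23 at 50% of cells and 501 at 1.5-fold. Of the other 8 genes, Casp1, Pycard and Gsdmd kept the sign of their log2 ratio under every alternative run. Casp8, Nlrp3 and Il1b changed sign on plate 2 alone, Il18 on plate 1 alone, and Aim2 on plate 2 alone, at equal depth and without the moLC of 761 reads. The cause was not tested. No paired analysis was possible because no animal is named and the result comes from no test. Casp1, Pycard and Gsdmd lay below 25% of cells in both origins, also at equal depth.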
